A study of Mus musculus with 12 samples.

Results

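Transcript levels were followed for 9 genes of the Nodal-Lefty pathway in mouse embryonic stem (mES) cells whose BRG1 protein was depleted to different degrees. The 9 genes were taken by symbol from a table of 24421 genes: the ligand Nodal, its antagonists Lefty1 and Lefty2, the coreceptor gene Tdgf1, the receptor genes Acvr1b and Acvr2b, the signal transducer Smad2 and the feedback genes Smad7 and Skil. They were chosen by pathway and by 1 measured value, the lower level of Lefty2 at the lowest dose. All 9 of the 9 were found, and all 9 had a mean of at least 1 RPKM (counts divided by exon length in kb and by the normalized library size), the limit that 11378 genes of the table passed.

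Nodal is a secreted ligand of the TGF-beta family that signals through a type I and a type II activin receptor, here ACVR1B and ACVR2B, together with the coreceptor Cripto, the product of Tdgf1. The receptors phosphorylate SMAD2 and SMAD3, which enter the nucleus with SMAD4 and bind DNA beside partners such as FOXH1. Among the best known targets in embryonic cells are Nodal itself, the secreted antagonists Lefty1 and Lefty2, and Smad7 and Skil, whose products restrain the same signal, so the pathway holds both positive and negative feedback.

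The cells were mES cells of C57BL/6J (B6) origin, grown on gelatin in medium with serum, LIF and the 2 inhibitors of 2i (of MEK and of GSK3). In all 12 libraries the Brg1 locus, which encodes the ATPase subunit BRG1 of the mSWI/SNF chromatin remodeler, carried a knock-in of an FKBP12-derived degron, so the controls carried the tag as well and untagged cells were not among the groups. The knock-in cells came from colonies grown from single cells, and the labels do not name a second clone. The small molecule dTAG13 directs the tagged protein to the proteasome. The treated groups received dTAG13 for 24 h at 0.3, 1, 3, 10 or 100 nM, and the controls are the group called 0 nM. The labels give these controls no treatment, whereas the study describes them as treated with DMSO, the solvent. Each of the 6 conditions had 2 libraries. The study describes the replicates as independent experiments, the labels do not name their cultures, and p-values measure the spread between these libraries.

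Total counts ran from 4663484 to 6375582 per library (median 5956670), and the spread between replicates over all tested genes corresponded to a biological coefficient of variation of 6.20%. The ribosomal RNA gene Rn45s took 10.5% to 19.4% of the counts, and the 2 libraries of 3 nM differed most, by 17.97 in chi-square per degree of freedom against 2.03 to 10.7 in the other conditions. That chi-square used raw counts with Rn45s among the genes, and Rn45s took 10.5% and 19.0% of the counts in the 2 libraries of 3 nM. The difference over the other genes alone was not tested. Smarca4, the gene of BRG1, stood at 63.5 to 71.3 RPKM; its transcript is not what dTAG13 targets, so it does not test the labels. All 8 of 8 mES cell markers exceeded 1 RPKM in every condition. Their summed level was 2002 to 2028 RPKM at 0 nM and 1823 to 1873 RPKM at 100 nM. None of 6 primitive endoderm markers reached a mean of 1 RPKM (0 of 6, summed 1.21 to 2.21 RPKM over all libraries, with no count of Gata6 or Foxa2 at 1 nM). The summed level of 5 trophectoderm markers, 2 of which exceeded 1 RPKM, was 4.75 to 6.09 RPKM at 0 nM and 10.5 to 11.3 RPKM at 100 nM, and that of 5 fibroblast markers, 1 of them over 1 RPKM, was 2.65 to 3.49 and 3.31 to 4.44 RPKM. The part of these cell types in the results at 100 nM was not tested. In bulk RNA, fewer cells expressing a gene and less RNA per cell cannot be told apart.

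The S numbers in the labels run from 1 to 8 for the libraries of 0, 1, 10 and 100 nM, and the 4 libraries of 0.3 and 3 nM carry S numbers from 3 to 6 again. Comparisons of 0.3 or 3 nM with 0 nM therefore cross these numberings, whereas 1, 10 and 100 nM against 0 nM, 100 against 1 nM and 3 against 0.3 nM each stay within 1 of them. The comparisons with 0 nM share its 2 libraries.

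Lefty2 (mm10 chromosome 1, 180893119 to 180899102, plus strand) encodes one of the secreted antagonists that block Nodal and its coreceptor. The control libraries counted 672 and 651 pairs, and the treated ones 349 and 381 (0.3 nM), 310 and 314 (1 nM), 239 and 294 (3 nM), 294 and 357 (10 nM) and 380 and 383 (100 nM). On the RPKM scale its level was 45.0 ± 2.72 at 0 nM, 26.1 ± 1.53 (0.3 nM), 21.2 ± 0.0291 (1 nM), 20.5 ± 1.09 (3 nM), 22.4 ± 3.75 (10 nM) and 25.5 ± 0.0878 (100 nM) (mean ± SD, n = 2). Every treated library was lower than both control libraries, and most of the difference was already there at 0.3 nM, where the level was 58.0% of the control mean, against 56.7% at 100 nM. The lowest mean was at 3 nM, at 45.5% of the control.

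The log2 fold change of Lefty2 against 0 nM was -0.78 at 0.3 nM (95% interval -0.98 to -0.58) and -0.82 at 100 nM (-1.02 to -0.62), with values of -1.08, -1.13 and -1.01 for 1, 3 and 10 nM. These values are descriptions with no test, since the value at 0.3 nM chose the genes and the control libraries are shared. Ordered from high to low, the mean levels were those of 0, 0.3, 100, 10, 1 and 3 nM. The libraries of 0.3 and 100 nM overlapped, as did those of 10 and 1 nM and of 1 and 3 nM, while 100 nM lay just above 10 nM (25.4 against 25.1 RPKM at the nearest libraries). In the 1 comparison of Lefty2 that did not use the chosen libraries, 100 against 1 nM, the log2 fold change was 0.27 (standard error 0.10, 95% interval 0.05 to 0.48), and it did not pass edgeR's quasi-likelihood test (adjusted p = 0.0962, Benjamini-Hochberg). A fit of these 4 libraries alone gave an adjusted p of 0.0359, and without single libraries it reached 0.271.

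**Figure D1:**
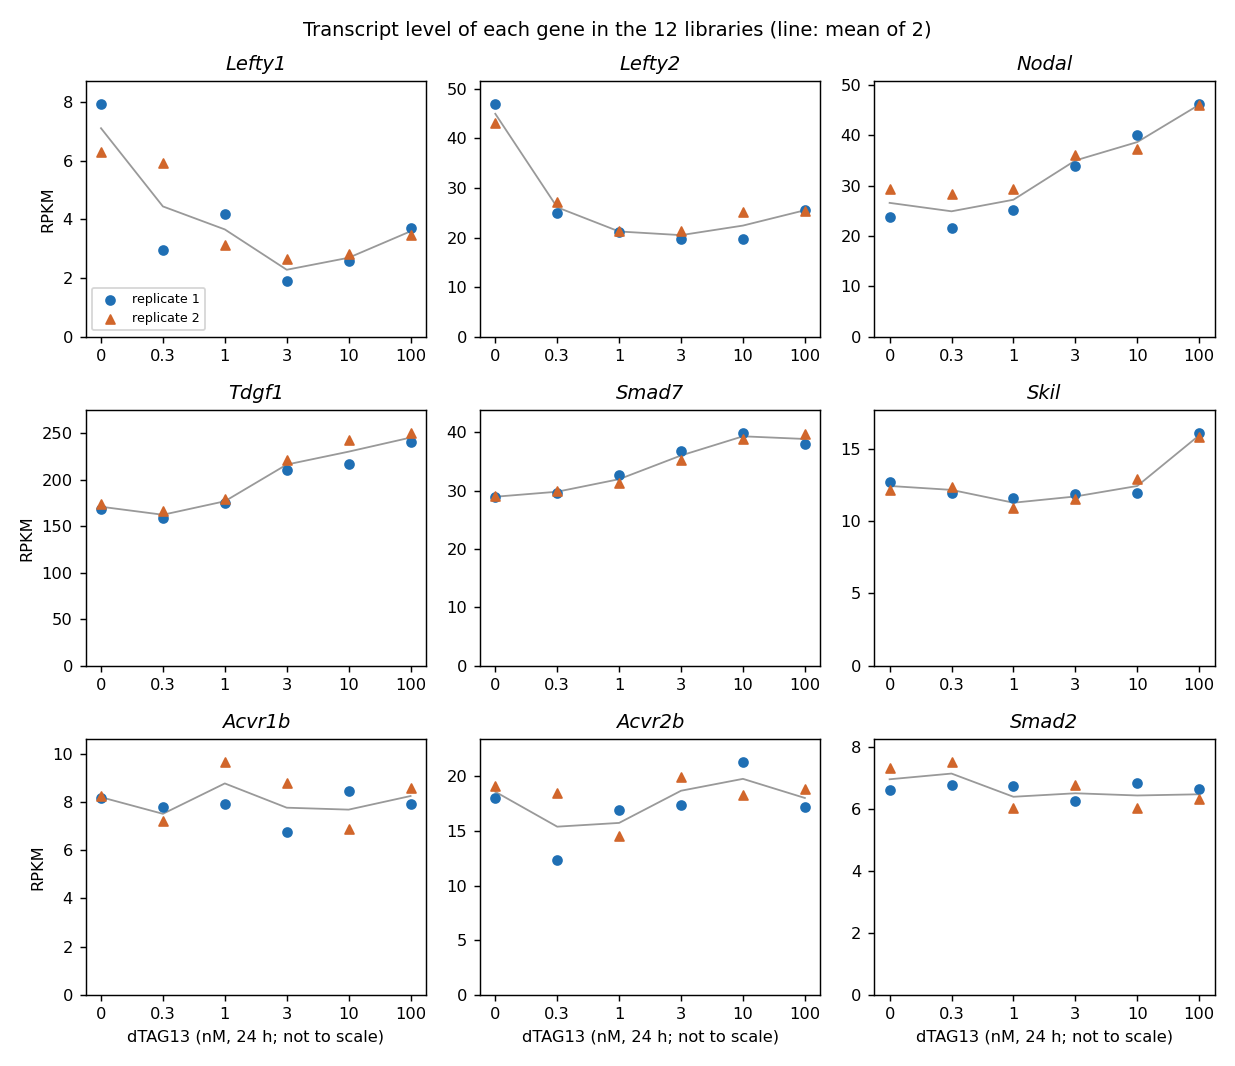
RPKM of the 9 genes (vertical axes, linear from 0) in each library by dTAG13 dose (horizontal axes, ordered and not to scale); circles and triangles are replicates 1 and 2 and the line joins the means of 2. The treated libraries of Lefty2 sit between 19.7 and 27.2 RPKM, all below the control libraries, whereas Nodal and Tdgf1 climb from 1 to 100 nM, Smad7 climbs up to 10 nM and Skil stands higher at 100 nM.

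Lefty1 (chromosome 1, 180935039 to 180938401, plus strand), the neighbouring gene of the second antagonist, was present at a lower level per length and was likewise lower after treatment. Its counts were 74 and 62 at 0 nM, 27 and 54 (0.3 nM), 40 and 30 (1 nM), 15 and 24 (3 nM), 25 and 26 (10 nM) and 36 and 34 (100 nM). All 10 treated libraries were below both controls, and at 0.3 nM the replicates stood apart, at 2.97 and 5.91 RPKM. The mean level was 7.11 RPKM (6.29 and 7.92) in the controls, 3.65 ± 0.766 (1 nM), 2.28 ± 0.540 (3 nM), 2.69 ± 0.158 (10 nM) and 3.59 ± 0.177 (100 nM) (SD, n = 2).

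Lefty1 fell at 3 nM by 1.62 on the log2 scale (standard error 0.32, adjusted p = 0.00121, quasi-likelihood test of edgeR, adjusted by Benjamini-Hochberg), to 32.1% of the control mean. It also fell at 10 nM (-1.40 on the log2 scale, standard error 0.30, adjusted p = 0.00144) and at 100 nM (-0.98, standard error 0.28, adjusted p = 0.0123). At 1 nM the log2 fold change was -0.96 with an adjusted p of 0.0792, and at 0.3 nM, described without a test, it was -0.67. Between 1 and 100 nM the difference was -0.02 (95% interval -0.67 to 0.62), which leaves changes of that width in either direction undetected. Counts of Lefty1 were low, and its call at 100 nM was lost with DESeq2 (adjusted p = 0.0567), without 0 nM replicate 1 (0.122) and without 100 nM replicate 1 (0.0627) or replicate 2 (0.0899). Its 1 nM value passed with the likelihood ratio test (0.032), with no filter on low values (0.0157) and among the 8 libraries of 0, 1, 10 and 100 nM alone (0.0402).

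The genes of the antagonists are close copies in part. Of 1682 windows of 75 bases, the read length, in the GENCODE M21 transcripts of Lefty1, 197 (11.7%) occurred also in Lefty2, which is 7.77% of the 2535 windows of Lefty2. The counting left out read pairs that map to several places, so pairs from these stretches may be missing from the counts of both genes.

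Nodal (chromosome 10, 61417972 to 61425337, plus strand), the ligand, had a different course. It had 291 and 377 counts in the controls, 256 and 337 (0.3 nM), 312 and 369 (1 nM), 349 and 426 (3 nM), 507 and 452 (10 nM) and 584 and 589 (100 nM). The libraries of 0, 0.3 and 1 nM overlapped between 21.6 and 29.3 RPKM, and those of 3, 10 and 100 nM lay above them in steps that did not overlap. Means were 26.6 ± 3.84 RPKM in the controls, 27.2 ± 3.01 (1 nM), 35.0 ± 1.66 (3 nM), 38.7 ± 1.94 (10 nM) and 46.1 ± 0.137 (100 nM) (SD, n = 2).

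Nodal rose by a log2 fold change of 0.79 at 100 nM (standard error 0.11, 1.73-fold, adjusted p = 5.2e-06, edgeR's quasi-likelihood test). It also rose at 10 nM (0.54, standard error 0.11, adjusted p = 0.00114) and at 3 nM (0.40, standard error 0.12, adjusted p = 0.0276), both under the 1.5-fold minimum. At 1 nM the value was 0.03 (95% interval -0.21 to 0.27, adjusted p = 0.943) and at 0.3 nM -0.10 (95% interval -0.34 to 0.15, not tested). The rise was also found away from the control libraries, at 100 against 1 nM (0.76, adjusted p = 1.7e-05) and at 3 against 0.3 nM (0.49, adjusted p = 0.0113). The call at 3 nM against 0 nM was lost with DESeq2 (adjusted p = 0.0627), without 0 nM replicate 1 (0.34) and without 3 nM replicate 2 (0.161), that at 10 nM without 0 nM replicate 1 (0.0543), and that of 3 against 0.3 nM without 0.3 nM replicate 1 (0.269) or 3 nM replicate 2 (0.0892).

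Tdgf1 (chromosome 9, 110939608 to 110946158, minus strand), the gene of the coreceptor Cripto, had the highest level of the 9 genes per length, with a mean of 200.4 RPKM over the 12 libraries. It stood at 168 and 174 RPKM in the controls, 159 and 166 (0.3 nM), 175 and 179 (1 nM), 211 and 222 (3 nM), 217 and 243 (10 nM) and 241 and 250.002 (100 nM). From 1 nM on, every library was above both controls, by little at 1 nM and clearly from 3 nM on. Tdgf1 rose at 3 nM (log2 fold change 0.34, standard error 0.060, adjusted p = 4.6e-04), at 10 nM (0.43, standard error 0.060, adjusted p = 8.8e-06) and at 100 nM (0.52, standard error 0.060, adjusted p = 2.6e-07), in each case by less than 1.5-fold. At 1 nM it was 0.05 (95% interval -0.08 to 0.17, adjusted p = 0.804) and at 0.3 nM -0.07 (not tested). It rose as well at 100 against 1 nM (0.47, adjusted p = 2.2e-06) and at 3 against 0.3 nM (0.41, adjusted p = 9.3e-05), and none of these 5 calls was lost under any alternative run. Of 2690 windows of 75 bases in its transcripts, 161 (5.99%) occurred also in Tdgf1-ps1, so the pseudogene may take or remove part of its counts.

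Since Nodal and Tdgf1 rose together at 3, 10 and 100 nM, the 250 bases upstream of their start sites are shown, 5′ to 3′ on the strand of the gene, as RefSeq gives them on GRCm38.p6 (the assembly called mm10). Capitals mark the SMAD-binding element CAGAC, searched on both strands. Nodal is at chr10:61417722-61417971 on the plus strand and Tdgf1 at chr9:110946159-110946408 on the minus strand.
Nodal: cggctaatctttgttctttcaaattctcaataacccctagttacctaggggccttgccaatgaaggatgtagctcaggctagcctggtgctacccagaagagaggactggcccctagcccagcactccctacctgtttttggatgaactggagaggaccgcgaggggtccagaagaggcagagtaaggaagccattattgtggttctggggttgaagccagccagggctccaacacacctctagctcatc
Tdgf1: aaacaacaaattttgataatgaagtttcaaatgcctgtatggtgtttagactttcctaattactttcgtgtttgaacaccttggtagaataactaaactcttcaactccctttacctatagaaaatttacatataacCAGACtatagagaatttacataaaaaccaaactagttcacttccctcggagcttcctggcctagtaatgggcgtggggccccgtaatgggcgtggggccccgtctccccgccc
In the 300 bases from 250 before to 50 after the start, Nodal held CAGAC 0 times and Tdgf1 once, 113 bases before the start. The letters occur in 49.6% of the 32851 promoters of that table, so that a match is common. The FOXH1 core TGTGGAT, which occurs in 3.38% of them on either strand and does not overlap CAGAC, was found 0 times in both. Of the other members, Acvr1b and Acvr2b were matched in the table, 4 of 9 in all, with CAGAC found 0 times in Acvr1b and 1 time in Acvr2b. Lefty1, Lefty2, Smad2, Smad7 and Skil were not matched.

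**Figure D2:**
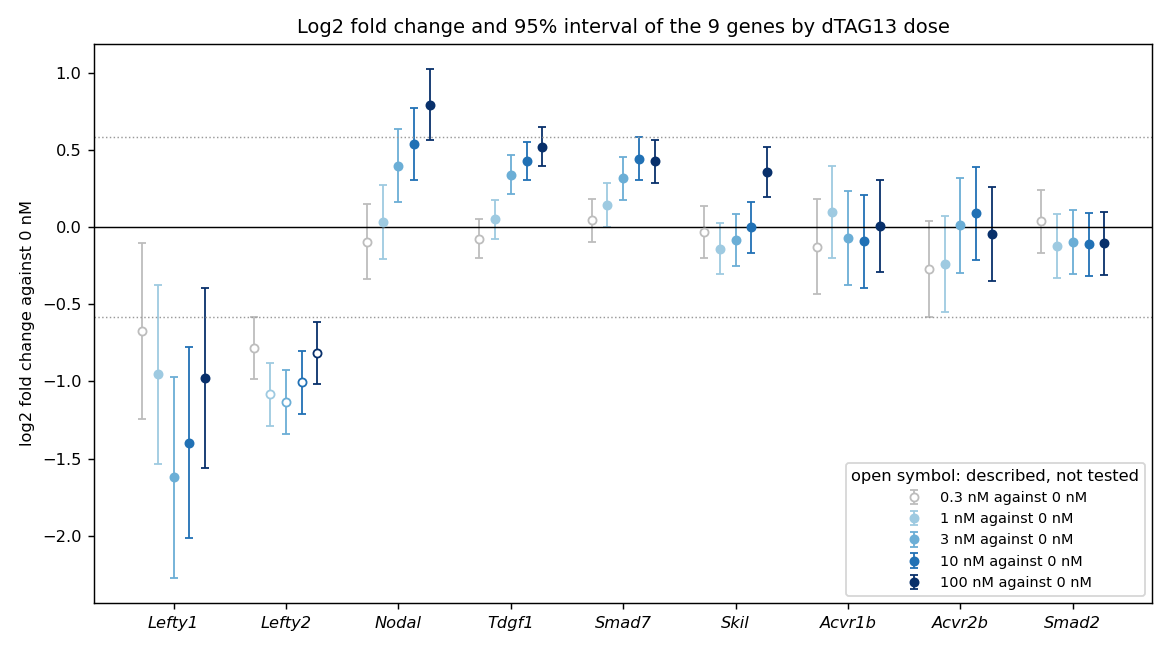
Log2 fold change against 0 nM (vertical axis) with its 95% interval for the 9 genes at 0.3, 1, 3, 10 and 100 nM dTAG13 (light to dark), from edgeR's fit of 12 libraries; open symbols were not tested and dotted lines mark 1.5-fold in either direction. Lefty1 and Lefty2 lie below 0 at each dose, Nodal reaches 0.79 and Tdgf1 0.52 at 100 nM, and the receptor genes and Smad2 stay near 0.

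Smad7 (chromosome 18, 75367365 to 75395934, plus strand) encodes the inhibitory SMAD that blocks the type I receptor. Its level was 28.8 and 29.1 RPKM in the controls, 29.6 and 30.0 (0.3 nM), 32.7 and 31.3 (1 nM), 36.9 and 35.2 (3 nM), 39.8 and 38.8 (10 nM) and 38.0 and 39.8 (100 nM). All treated libraries were above both controls, and those of 10 and 100 nM overlapped. Smad7 rose at 3 nM (log2 fold change 0.31, standard error 0.068, adjusted p = 0.00334), at 10 nM (0.44, standard error 0.068, adjusted p = 2.9e-05) and at 100 nM (0.42, standard error 0.068, adjusted p = 3.1e-05), by less than 1.5-fold each time. At 1 nM it was 0.14 (95% interval 0.00 to 0.28, adjusted p = 0.365) and at 0.3 nM 0.04 (not tested). Between treated conditions it rose at 100 against 1 nM (0.28, adjusted p = 0.00438) and at 3 against 0.3 nM (0.27, adjusted p = 0.0172). The first of these was lost with no filter on low values (adjusted p = 0.0725), without 1 nM replicate 2 (0.0701) and without 100 nM replicate 2 (0.0718). The second was lost in 6 alternatives (adjusted p from 0.052 to 0.138), among them the fits without 0.3 nM replicate 1 or 2 and without 3 nM replicate 1.

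Skil (chromosome 3, 31095058 to 31122923, plus strand) encodes SnoN, a corepressor of SMAD complexes. It stood at 12.7 and 12.1 RPKM in the controls, 11.96 and 12.4 (0.3 nM), 11.6 and 10.9 (1 nM), 11.9 and 11.6 (3 nM), 11.9 and 12.9 (10 nM) and 16.1 and 15.8 (100 nM). Both libraries of 100 nM were above both controls, and among the other treated libraries 1 was, a library of 10 nM. Skil rose at 100 nM by a log2 fold change of 0.36 (standard error 0.078, 1.28-fold, adjusted p = 0.00122) and against 1 nM by 0.50 (standard error 0.079, adjusted p = 5.3e-05). From 0.3 to 10 nM its log2 fold changes ran from -0.14 to 0.00, with no adjusted p under 0.476 at 1, 3 and 10 nM.

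The receptor genes and Smad2 gave 0 calls in the comparisons tested with edgeR, and 0 of their values were under 0.05 without adjustment. Acvr1b (chromosome 15, 101174125 to 101212601, plus strand), for the type I receptor, ran from 6.75 to 9.65 RPKM over the 12 libraries, Acvr2b (chromosome 9, 119402501 to 119433506, plus strand), for the type II receptor, from 12.3 to 21.3 RPKM, and Smad2 (chromosome 18, 76241701 to 76311747, plus strand), for the signal transducer, from 6.03 to 7.49 RPKM. Treated libraries overlapped the controls at each dose, except Acvr1b at 0.3 nM and Acvr2b at 1 nM, where both lay below them. At 100 nM the log2 fold change was 0.01 for Acvr1b (95% interval -0.29 to 0.31), -0.05 for Acvr2b (-0.35 to 0.26) and -0.11 for Smad2 (-0.31 to 0.10). These intervals leave room for changes of about that width, and the adjusted p at 100 nM was 0.983, 0.869 and 0.493 in the same order. Against 0 nM the farthest values were those of Acvr2b at 0.3 nM (-0.27, not tested, with libraries at 12.3 and 18.5 RPKM) and at 1 nM (-0.24, 95% interval -0.55 to 0.07, adjusted p = 0.528), and at 3 against 0.3 nM Acvr2b was at 0.28 (95% interval -0.04 to 0.60, adjusted p = 0.341).

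Counted over the set, calls were absent at 1 nM and present from 3 nM on, and they are set beside the share of all genes called. At 0.3 nM, where all members are described without a test, 0.0176% of the tested genes passed adjusted p under 0.05 and 1.5-fold. At 1 nM, 0 of 8 members (Lefty2 left out) were called, against 0.185% of all tested genes higher and 0.729% lower, and 0 passed adjusted p alone, against 2.29%. Without adjustment 2 of the 8 were under 0.05 in edgeR's test at 1 nM, Lefty1 lower and Smad7 higher. The share of all tested genes under 0.05 without adjustment was not counted, here or for the unadjusted counts below. DESeq2 called 0 members at 1 nM, but it gave Lefty1 no adjusted p (log2 fold change -0.96). At 3 nM, 1 of 8 was called, Lefty1, against 1.52% of all genes higher and 2.38% lower, and 4 of 8 passed adjusted p alone, against 9.4%. At 10 nM, 1 of 8 was called, again Lefty1, against 3.01% higher and 4.92% lower, and 4 of 8 passed adjusted p alone, against 17.9%. At 100 nM, 1 of 8 was called higher (Nodal), against 4.37%, and 1 lower (Lefty1), against 6.83%. By adjusted p alone 5 of 8 passed at 100 nM, 4 higher and 1 lower, against 23.4% in both directions together. The median log2 fold change of the 8 was 0.18 at 100 nM, beside 0 over all tested genes.

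Of the comparisons that leave out the controls, 100 against 1 nM had 1 of 9 members past both limits (Nodal), against 6.3% of all genes, and 4 of 9 past adjusted p alone (Nodal, Tdgf1, Smad7 and Skil), against 13.4%. For 3 against 0.3 nM, 0 of 8 were past both limits in edgeR or DESeq2, against 1.94%, and 3 of 8 past adjusted p alone (Nodal, Tdgf1 and Smad7), against 5.31%, with 4 under 0.05 before adjustment. Lefty1 had a log2 fold change of -0.95 there (standard error 0.34, adjusted p = 0.114), which passed with no filter on low values (0.0408) and without 0.3 nM replicate 1 (-1.36, adjusted p = 0.0412). Without 0.3 nM replicate 2 it was -0.37 (adjusted p = 0.716), so that its size rests on the replicates of 0.3 nM.

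The ligand and its antagonists were also set against each other within each library. The ratio of Nodal RPKM to the summed RPKM of Lefty1 and Lefty2 was 0.435 and 0.594 in the 0 nM libraries, 0.771 and 0.854 (0.3 nM), 0.987 and 1.205 (1 nM), 1.57 and 1.51 (3 nM), 1.79 and 1.34 (10 nM) and 1.58 and 1.59 (100 nM). Each treated library exceeded both controls, and the libraries of 0, 0.3, 1 and 3 nM formed steps that did not overlap, whereas those of 10 nM overlapped both 3 and 100 nM. Over 0, 0.3 and 1 nM the libraries of Nodal overlapped, while those of Lefty2 did not overlap between 0 and 0.3 nM or between 0.3 and 1 nM. From 3 to 100 nM the means of all 3 genes were higher, from 35.0 to 46.1 RPKM for Nodal, from 2.28 to 3.59 for Lefty1 and from 20.5 to 25.5 for Lefty2. Over the 12 libraries, which share their conditions, Pearson's r of Nodal was -0.42 with Lefty1 and -0.33 with Lefty2. The ratio holds Lefty2, whose values chose the genes, and so is a description with no test.

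**Figure D3:**
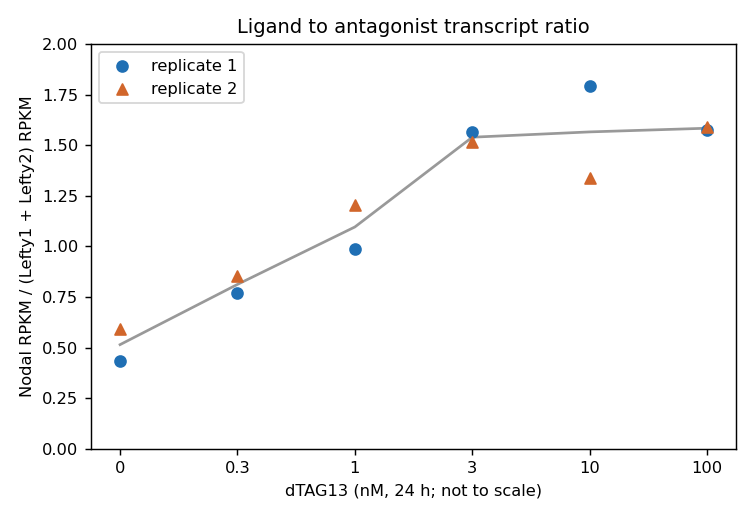
Ratio of Nodal RPKM to the sum of Lefty1 and Lefty2 RPKM (vertical axis, no unit) in each library by dTAG13 dose (horizontal axis, ordered and not to scale), with circles and triangles for replicates 1 and 2 and a line through the means. The controls sit at 0.435 and 0.594 and the libraries of 100 nM at 1.58 and 1.59.

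Another 40 genes of Nodal, activin and TGF-beta signalling were read in the same fit, of which 25 passed the limit on level. At 100 nM 0 of 25 were called higher and 3 lower (adjusted p under 0.05 and 1.5-fold), against 4.37% and 6.83% of all genes. Without adjustment 6 higher and 6 lower were under 0.05, and the share of all tested genes at that limit was not counted. By adjusted p alone 8 of 25 passed, 2 higher and 6 lower, against 23.4%. At 1 nM 0 of 25 passed either limit (3 higher and 4 lower were under 0.05 without adjustment, and DESeq2 called 0), at 3 nM 3 passed both (2 higher and 1 lower, against 1.52% and 2.38% of all genes) and at 10 nM 2 (0 higher and 2 lower, against 3.01% and 4.92%). The median log2 fold change of the 25 at 100 nM was -0.08, beside 0 over all tested genes.

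Among ligands and the proteases that process them, 1 of 5 measured genes was past both limits at 100 nM, lower, against 6.83% of all genes, and 3 of 5 had fallen by adjusted p alone, against 23.4% in both directions together. The groups below are read against the same shares. Inhbb (chromosome 1, 119415465 to 119422248, minus strand), which encodes the beta B subunit of activin and inhibin, had 67 and 60 counts in the controls, 70 and 69 (0.3 nM), 77 and 71 (1 nM), 42 and 54 (3 nM), 25 and 17 (10 nM) and 6 and 8 (100 nM). The libraries up to 1 nM were all high and those of 10 and 100 nM all low, without overlap. It fell by 3.18 on the log2 scale at 100 nM (standard error 0.32, adjusted p = 3.8e-08), to 10.8% of the control RPKM, and by 1.58 at 10 nM (standard error 0.26, adjusted p = 7.4e-05). Gdf3 (chromosome 6, 122605403 to 122610071, minus strand), a ligand that also uses Cripto and the highest of this group, went from 45.4 ± 4.04 RPKM at 0 nM to 32.0 ± 0.674 at 100 nM (SD, n = 2; log2 fold change -0.50, standard error 0.086, adjusted p = 7.5e-05). Furin, a convertase of the Nodal precursor named here after its values were seen, fell by 0.51 at 100 nM (adjusted p = 0.017). This call was lost with DESeq2 (0.108) and with no normalization factors (0.0522). Without single libraries its log2 fold change was -0.52 to -0.50, but the call was lost in each such fit. The lower level was not confined to the highest dose, since both libraries of every treated condition were below both controls. Lower doses gave Furin log2 fold changes of -0.20 (0.3 nM, not tested), -0.51 (1 nM, adjusted p = 0.0841), -0.36 (3 nM, 0.166) and -0.24 (10 nM, 0.316). Pcsk6, another convertase of the Nodal precursor and also named after its values were seen, had both libraries above both controls at 1, 3 and 10 nM and both below them at 100 nM. Pcsk6 rose at 3 nM (log2 fold change 0.43, adjusted p = 0.0115). This call was lost without 0 nM replicate 1 (log2 fold change 0.33) and without 3 nM replicate 2 (0.36). At 100 nM it was at -0.20 (adjusted p = 0.227), and at 100 against 1 nM it was lower (-0.50, adjusted p = 0.00219).

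Neither of the 2 other receptor genes measured was called in the comparisons with 0 nM tested. Tgfbr1 (chromosome 4, 47353305 to 47414924, plus strand), the type I receptor of TGF-beta, stood at 5.18 ± 0.0510 RPKM at 0 nM and 6.40 ± 0.168 at 100 nM (SD, n = 2; log2 fold change 0.31, 95% interval 0.04 to 0.57, adjusted p = 0.0907). Acvr2a, for another type II activin receptor and named after its values were seen, stood at 3.84 and 3.69 RPKM in the controls, 2.61 and 2.41 (0.3 nM), 2.70 and 2.87 (1 nM), 3.00 and 3.85 (3 nM), 3.11 and 3.59 (10 nM) and 3.23 and 3.88 (100 nM). Both libraries were below both controls at 0.3, 1 and 10 nM, and those of 3 and 100 nM overlapped the controls. Its log2 fold change was -0.59 at 0.3 nM (95% interval -0.93 to -0.24, not tested), -0.44 at 1 nM (-0.77 to -0.10, adjusted p = 0.195, and 0.169 to 0.54 over the alternatives) and -0.08 at 100 nM (adjusted p = 0.764). Of 6 SMADs and cofactors, 1 was called, Foxh1.

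Foxh1 (chromosome 15, 76668224 to 76669948, minus strand) encodes the DNA-binding partner of SMAD2. Its level was 41.0 and 39.5 RPKM in the controls, 36.4 and 37.3 (0.3 nM), 35.4 and 31.6 (1 nM), 31.1 and 31.6 (3 nM), 29.9 and 29.2 (10 nM) and 23.5 and 23.9 (100 nM). Each treated library was below both controls. Foxh1 fell at 100 nM (log2 fold change -0.76, standard error 0.10, adjusted p = 2.6e-06), at 10 nM (-0.45, adjusted p = 0.00217) and at 3 nM (-0.36, adjusted p = 0.0213), and at 1 nM it was -0.27 (adjusted p = 0.189). It also fell at 100 against 1 nM (-0.50, adjusted p = 0.0014). The call at 3 nM was lost with DESeq2 (0.119), with no normalization factors (0.124) and without either library of 0 nM (0.126 and 0.0674) or of 3 nM (0.113 and 0.0907).

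Of 10 inhibitors measured, 1 was past both limits at 100 nM, and by adjusted p alone 1 was higher and 2 lower. Pmepa1 (chromosome 2, 173224465 to 173276533, minus strand), a TGF-beta target whose product sequesters receptor-activated SMADs, had 152 and 191 counts in the controls, 141 and 125 (0.3 nM), 99 and 139 (1 nM), 80 and 80 (3 nM), 78 and 73 (10 nM) and 48 and 58 (100 nM). All treated libraries were below both controls in RPKM, and those of 3, 10 and 100 nM stood below those of 1 nM as well. Pmepa1 fell at 3 nM (log2 fold change -0.91, standard error 0.17, adjusted p = 7.2e-04), at 10 nM (-1.16, adjusted p = 1.7e-05) and at 100 nM (-1.71, standard error 0.18, adjusted p = 7.4e-08), to 30.5% of the control. Ppm1a, a SMAD phosphatase and the highest of the inhibitors (chromosome 12, 72761211 to 72794940, plus strand), was at 32.3 ± 0.212 RPKM at 0 nM and 33.6 ± 1.12 at 100 nM (SD, n = 2; log2 fold change 0.06, 95% interval -0.12 to 0.23, adjusted p = 0.703, with the sign turned, at -0.03, when no filter was used). Fst and Ski were named after their values were seen. Fst, whose product follistatin binds activin, had a log2 fold change of 0.45 at 100 nM (adjusted p = 0.00744), a call lost with no filter (0.0511). The 100 nM call was also lost without 0 nM replicate 2, where the value was 0.43. Fst was at 0.38 at 10 nM (adjusted p = 0.0305), lost with DESeq2 (0.142), with no filter (0.119) and in the pairwise fit (0.0525). Without single libraries Fst ranged from 0.34 to 0.42 at 10 nM, and the call was lost each time. At 100 against 1 nM it was past both limits (0.64, 1.56-fold, adjusted p = 5.5e-04), a comparison not run under the alternatives for pathway genes. Ski, a corepressor related to Skil, was at -0.26 (adjusted p = 0.0236), lost with DESeq2 (0.0697), with no normalization factors (0.191) and without 0 nM replicate 2 (0.261) or 100 nM replicate 2 (0.196).

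Eomes (chromosome 9, 118478189 to 118486132, plus strand), a T-box gene of the mesendoderm, was 1 of 2 targets measured, beside T. It stood at 9.98 and 8.45 RPKM in the controls, 11.3 and 10.0 (0.3 nM), 11.3 and 13.5 (1 nM), 13.6 and 14.2 (3 nM), 12.6 and 14.2 (10 nM) and 11.8 and 11.4 (100 nM). All treated libraries lay above the controls and the highest mean was at 3 nM. Eomes rose at 3 nM (log2 fold change 0.59, standard error 0.12, adjusted p = 0.00161), at 10 nM (0.54, adjusted p = 0.00176) and at 100 nM (0.33, adjusted p = 0.0465). The calls at 3, 10 and 100 nM were lost without 0 nM replicate 2 (adjusted p = 0.0587, 0.0649 and 0.364), and that at 100 nM also with DESeq2 (0.136), with no filter (0.183), and without 100 nM replicate 1 (0.196) or replicate 2 (0.113). T, the gene of Brachyury, named here after its values were seen, was the other target past both limits at 3 nM. Its log2 fold change there was 0.70 (adjusted p = 0.0144, lost with DESeq2 at 0.0801), and 0.55 to 0.84 without single libraries. The call at 3 nM was also lost without 0 nM replicate 2 and without either library of 3 nM. Both libraries of T were above both controls at 1, 3, 10 and 100 nM. The values were 0.52 at 1 nM (adjusted p = 0.173), 0.56 at 10 nM (0.0352) and 0.48 at 100 nM (0.0575). The 10 nM call was lost with DESeq2 (0.149), with no filter (0.0908) and in the pairwise fit (0.0664). It was lost as well without any single library of 0 or 10 nM (log2 fold change 0.41 to 0.70). Eomes and T are also 2 of the 4 mesendoderm markers, whose summed level was 13.8 to 16.8 RPKM at 0 nM, 22.7 to 23.7 at 3 nM and 19.3 to 20.3 at 100 nM, with the 2 others, Mixl1 and Gsc, under 1 RPKM.

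**Figure D4:**
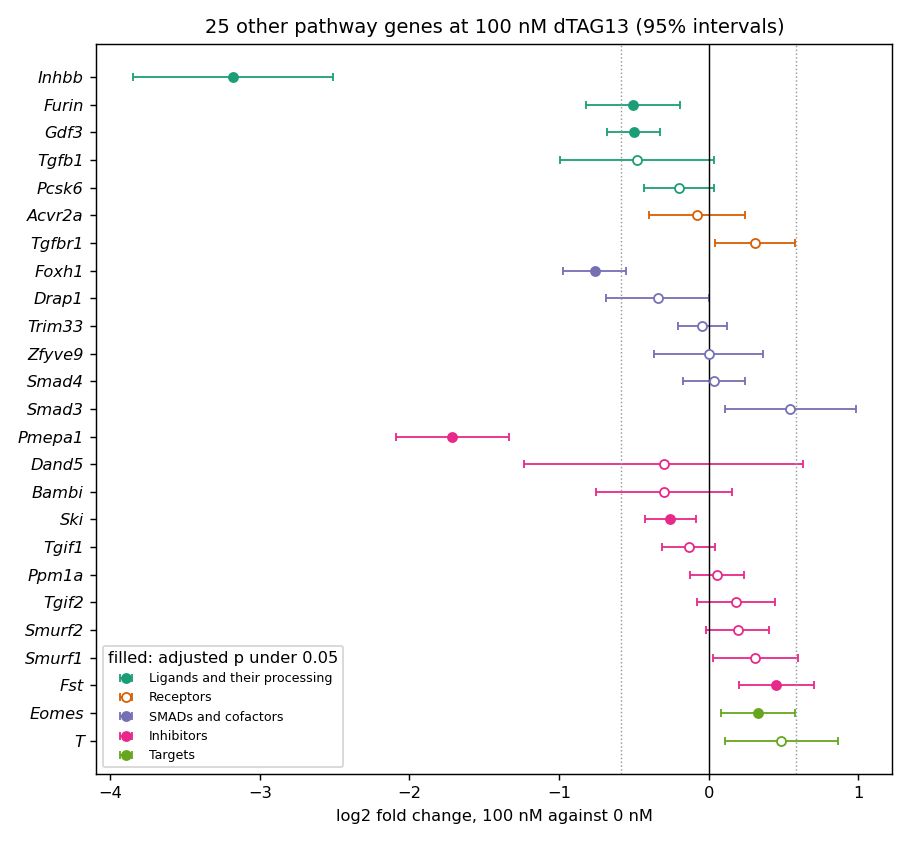
Log2 fold change at 100 nM against 0 nM (horizontal axis) with its 95% interval for 25 other pathway genes (vertical axis), colored by group; filled symbols had an adjusted p under 0.05 and dotted lines mark 1.5-fold. Inhbb at -3.18, Pmepa1 at -1.71 and Foxh1 at -0.76 are the 3 past both limits.

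**Figure D5:**
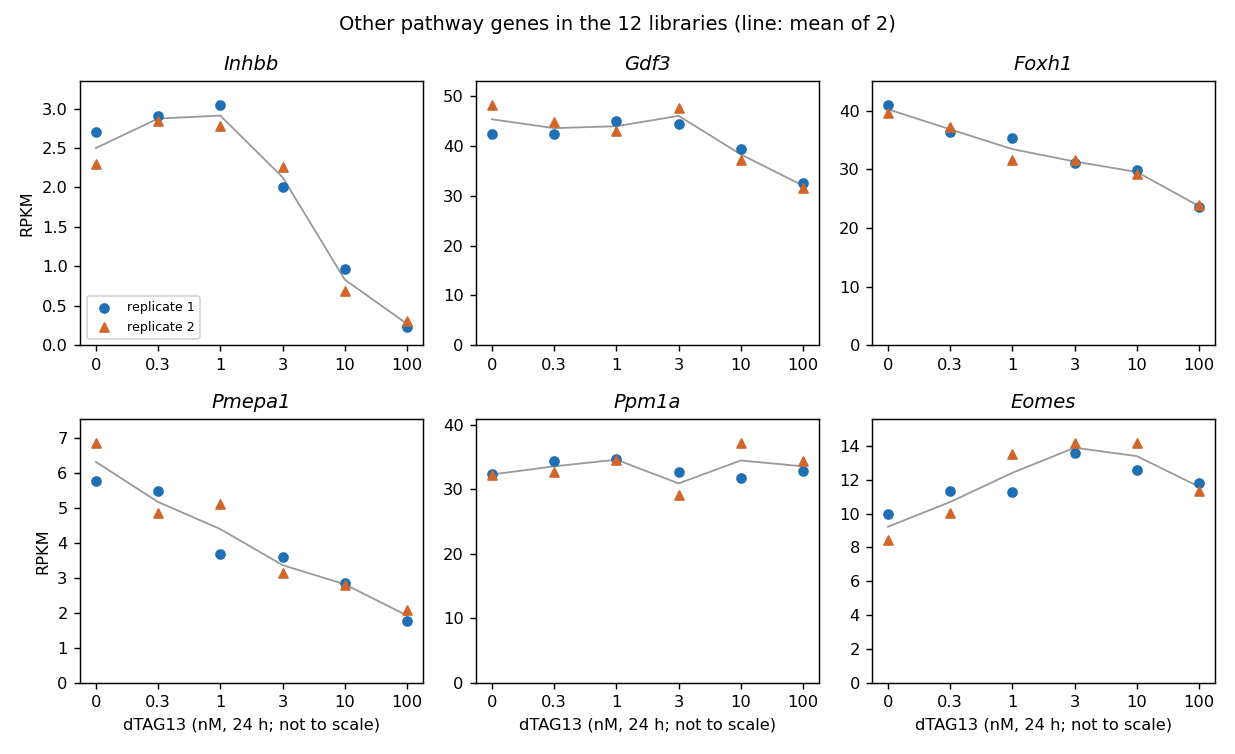
RPKM of Inhbb, Gdf3, Foxh1, Pmepa1, Ppm1a and Eomes (vertical axes, linear from 0) in each library by dTAG13 dose (horizontal axes, ordered and not to scale); circles and triangles are replicates 1 and 2 and the line joins the means. Inhbb drops from 3 nM on, Foxh1 and Pmepa1 step down from the lowest dose on, and Eomes peaks at 3 nM.

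Of the 40 pathway genes, 15 lay under the limit on level, and 1 of these, Gdf1, had no count in any library. In edgeR's fit without that limit 0 of them were called at 100 nM, and 0 were under 0.05 without adjustment.

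The patterns most like those of Lefty2 and Nodal over the 12 libraries, by Pearson's r of log2(RPKM + 0.1), are given as a description with no test, since the libraries share their conditions. For Lefty2 the 5 nearest of the tested genes were Pgrmc1 (r = 0.892), Bach1 (0.892), Farp1 (0.877), Insig1 (0.877) and Celsr1 (0.874). Pgrmc1, a heme-binding membrane protein gene, had a mean of 32.8 RPKM at 0 nM, 22.6 at 1 nM and 23.1 at 100 nM, and Bach1, a transcription repressor gene, 5.64, 3.89 and 3.93 RPKM. Lefty1 had r = 0.854 with Lefty2. For Nodal the nearest were Nme4 (r = 0.966), Avpi1 (0.965), Tubb3 (0.964), Slc23a2 (0.957) and Ddhd2 (0.950), each with a higher mean at 100 nM than at 0 or 1 nM. Nme4, a mitochondrial nucleoside diphosphate kinase gene, had means of 28.1, 30.3 and 50.2 RPKM at 0, 1 and 100 nM, and Tubb3, a neuronal tubulin gene, 32.4, 38.0 and 59.3 RPKM. Within the set, Tdgf1 (r = 0.939) and Smad7 (0.878) were nearest to Nodal.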

How the data were processed

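RNA-seq was analysed in 12 libraries of degron-tagged mES cells, 2 for each of 6 dTAG13 doses. The authors deposited raw counts of read pairs per gene symbol (trim_galore, HISAT2 to mm10, featureCounts 2.0.1 on exons), without using strand, with both ends aligned and multi-mapped pairs left out. The exon length per gene was deposited beside the counts. Conditions came from the sample labels. RPKM was computed here with edgeR's TMM factors, and tests were run on the 11378 genes that averaged 1 RPKM or more. One model of the 6 conditions was fitted (R 4.3.3, edgeR 4.0.16, limma 3.58.1), contrasts were tested by the quasi-likelihood test of edgeR, and p-values were adjusted over all tested genes by Benjamini-Hochberg. A call needed an adjusted p under 0.05 and, where stated, a fold change over 1.5. Genes under the limit were tested in a fit of the 23204 genes with a count. Alternatives were the likelihood ratio test named in the study's methods, DESeq2 1.42.0, its size factors, no normalization factors, no filter, pairwise fits, a replicate block, no fold minimum, the 8 libraries of 1 run of S numbers, and each library left out. The members and lists were chosen with earlier results of these data known. Named were all members, the pathway genes past both limits at 100 nM, the highest of each pathway group, and the 5 genes nearest Lefty2 and the 5 nearest Nodal. In simulated counts for 100 nM against 0 nM over 11378 genes, 63% of 100 genes changed 1.5-fold and 91% of 100 changed 3-fold had an adjusted p under 0.05, and 12 of 11178 unchanged genes did. Some genes of the pathway list are not reported here and were left out of its counts.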

Additional observations from a re-analysis of the deposited data

How the results depend on the processing

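Of 879 values of single genes under the alternatives, 769 kept their direction and their side of the threshold, 74 lost a call, 7 gained one and 29 changed sign. A value to which DESeq2 gave no adjusted p, such as Lefty1 at 1 nM, was counted as not called. Members past both limits numbered 0 at 1 nM, and 1 with the likelihood ratio test, with no filter or among the 8 libraries. They numbered 1 at 3 nM, 1 at 10 nM, 2 at 100 nM, 1 for 100 against 1 nM and 0 for 3 against 0.3 nM. With no fold minimum these became 4, 4, 5, 4 and 3. At 10 nM no normalization factors gave 2, at 100 nM DESeq2 gave 1, and for 3 against 0.3 nM no filter gave 1. Without single libraries they ranged from 1 to 2 at 10 nM and at 100 nM and from 0 to 1 for 3 against 0.3 nM. The pathway alternatives were chosen after seeing the data. Pathway genes past both limits numbered 3, 2 and 3 at 3, 10 and 100 nM, and 5, 7 and 8 with no fold minimum. No normalization factors gave 4 at 10 nM, and without single libraries 3 nM ranged from 1 to 3. The cause was not tested.

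Signs turned only in values under 0.25 on the log2 scale with no call. Against 0 nM, no filter gave -0.0313 for Acvr2b at 3 nM, -0.073 for Acvr1b at 100 nM and -0.0261 for Ppm1a at 100 nM. DESeq2's test and its size factors each gave 0.0041 for Skil at 10 nM, and no normalization factors gave 0.06 for Skil at 10 nM and 0.0013 for Acvr2b at 100 nM. For 100 against 1 nM no normalization factors gave 0.0294 for Lefty1 and no filter -0.0572 for Smad2. Without single libraries the ranges against 0 nM were -0.11 to 0.18 for Nodal and -0.0588 to 0.23 for Acvr1b at 1 nM, -0.29 to 0.10 for Acvr1b and -0.10 to 0.10 for Acvr2b at 3 nM, -0.0594 to 0.0516 for Skil, -0.25 to 0.0458 for Acvr1b and -0.0311 to 0.19 for Acvr2b at 10 nM, and -0.0495 to 0.0637 for Acvr1b, -0.11 to 0.0175 for Acvr2b and -0.22 to 0.0448 for Acvr2a at 100 nM. For 100 against 1 nM they were -0.22 to 0.20 for Lefty1, -0.22 to 0.0665 for Acvr1b and -0.0562 to 0.10 for Smad2, and for 3 against 0.3 nM -0.16 to 0.23 for Acvr1b.

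The labels do not say whether libraries with the same replicate number were made together. Deviations of the replicates correlated by -0.09 to 0.09 over 15 pairs of conditions, and 0 exceeded 0.1. These values show no large difference shared by replicate number, but they cannot settle how the libraries were made. The replicate block left member calls at 0, 1, 1 and 2 at 1, 3, 10 and 100 nM, and moved the adjusted p of Eomes at 100 nM and of Gdf3 at 10 nM to 0.0537. With 4663484 to 6375582 counts per library and 2 libraries per condition, changes of low-count genes such as Lefty1 were the least precise.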
